A study of Mus musculus with 12 samples.

Results

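The subunits of the MLL3 and MLL4 histone methyltransferase complexes were followed at the transcript level in cultured CT26 cells, a mouse colorectal carcinoma line of BALB/c origin. The 10 genes were chosen by name as the known subunits of both complexes (Kmt2c, Kmt2d, Kdm6a, Ncoa6, Paxip1, Pagr1a, Ash2l, Wdr5, Rbbp5 and Dpy30); the rule used no measured value, but it was written with earlier results of these data known. Of these, 9 were found among the 17718 genes of the count table and all 9 passed the filter on low counts, while Pagr1a was not analysed here. RNA-seq was made from 3 libraries of Mll3 knock-out (Mll3KO) cells and 3 libraries of Mll3 wild-type (WT) cells, all grown in RPMI-1640 with serum and otherwise untreated. Mll3 is the older name of Kmt2c. The knock-out libraries are headed sg1, sg2 and sg3 in the table, and whether these numbers stand for guide RNAs, clones or repeats is not labelled, nor is the way the knock-out was made. The title of the series places the experiment in a study of MLL3 mutations across cancers and immunotherapy, and the comparison shows how transcripts of the other subunits stood when Kmt2c was targeted.

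MLL3 and MLL4 are large paralogous enzymes that place the monomethyl mark on lysine 4 of histone H3, chiefly at enhancers. Neither works alone: the core of WDR5, RBBP5, ASH2L and DPY30, shared with every other enzyme of the family, stimulates catalysis. Within this family, NCOA6, PTIP (Paxip1), PA1 (Pagr1a) and the demethylase UTX (Kdm6a) are found only in the MLL3 and MLL4 complexes. UTX removes methyl groups from lysine 27 of histone H3, the mark of Polycomb repression. KMT2C and KMT2D are among the chromatin genes most often mutated in human cancers.

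RefSeq promoters (GRCm38.p6, the assembly also called mm10, C57BL/6 reference, 250 bases before and 50 after the annotated start) were found for 9 of the 10 genes, Pagr1a included. The 4 shown are those of both methyltransferase genes, of Paxip1, which shares chromosome 5 with Kmt2c and moved the other way, and of Wdr5, the subunit with the smallest p. They are written in the gene's direction with the GC box (GGGCGG or CCGCCC on the other strand) and the NRF1 motif (GCATGCGC or GCGCATGC on the other strand) in capitals, overlapping matches included.
Kmt2c: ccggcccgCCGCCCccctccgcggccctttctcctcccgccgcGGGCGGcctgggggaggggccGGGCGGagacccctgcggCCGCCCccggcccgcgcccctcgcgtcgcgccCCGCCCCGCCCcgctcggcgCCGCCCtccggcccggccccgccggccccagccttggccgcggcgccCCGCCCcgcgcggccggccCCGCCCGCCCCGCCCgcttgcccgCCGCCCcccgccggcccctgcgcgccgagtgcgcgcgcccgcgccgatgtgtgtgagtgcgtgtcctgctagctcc
Kmt2d: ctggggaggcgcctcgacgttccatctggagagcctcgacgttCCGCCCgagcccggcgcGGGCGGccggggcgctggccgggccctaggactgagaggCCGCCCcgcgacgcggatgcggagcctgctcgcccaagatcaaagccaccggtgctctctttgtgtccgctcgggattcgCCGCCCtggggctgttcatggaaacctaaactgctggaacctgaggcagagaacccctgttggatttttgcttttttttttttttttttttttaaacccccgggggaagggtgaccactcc
Paxip1: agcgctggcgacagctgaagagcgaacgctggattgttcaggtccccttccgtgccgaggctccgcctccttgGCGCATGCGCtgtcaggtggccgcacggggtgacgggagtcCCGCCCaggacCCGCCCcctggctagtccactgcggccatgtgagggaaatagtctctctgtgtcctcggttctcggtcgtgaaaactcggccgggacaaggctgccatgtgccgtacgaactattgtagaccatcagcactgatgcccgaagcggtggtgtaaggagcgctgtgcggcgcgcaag
Wdr5: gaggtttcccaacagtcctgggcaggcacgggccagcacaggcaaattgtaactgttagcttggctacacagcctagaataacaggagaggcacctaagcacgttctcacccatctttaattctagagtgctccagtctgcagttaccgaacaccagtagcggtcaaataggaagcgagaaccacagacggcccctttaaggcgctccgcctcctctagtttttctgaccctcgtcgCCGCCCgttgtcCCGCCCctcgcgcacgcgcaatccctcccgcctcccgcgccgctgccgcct
The Kmt2c window, at chr5:25498734-25499033 on the minus strand, had a GC content of 88.0% and 56 CpG dinucleotides, and held 12 GC box matches. The median over the 32851 promoters of the RefSeq table was a GC content of 52.7% with 7 CpG dinucleotides, 0.0152% of promoters had a GC content as high as Kmt2c, and 0.0213% held 12 or more GC box matches. The Kmt2d window, at chr15:98871156-98871455 on the minus strand, had a GC content of 62.7% and 4 GC box matches. It lies wholly inside the Kmt2d span, whose upper coordinate is 98874077, so the annotated start used is not the outermost one. The windows of Kmt2c, Paxip1 and Wdr5 each cross the boundary of their gene. The starts used for Kmt2c and Paxip1 also lie inside their spans, and only that of Wdr5 is the outermost one. The Paxip1 window (chr5:27791501-27791800, minus strand) and the Wdr5 window (chr2:27514897-27515196, plus strand) held 2 GC box matches each. A GC box was present in 35.7% of all promoters of this length. Paxip1 also held the NRF1 letters, as 1 palindromic stretch that matches on both strands. Pagr1a, whose protein binds PTIP, held 3 NRF1 matches in 2 stretches, 1 of them palindromic. These letters were present in 2.71% of all promoters. These matches describe the letters of the reference and not bound sites.

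Total counts ran from 9786242 to 11129754 in the knock-out libraries and from 9559658 to 13406013 in the wild-type libraries. Values below are CPM, counts scaled to a common library size, after TMM scaling, a trimmed-mean correction for library composition, where 1 count is worth 0.0786 to 0.108 CPM. CPM is not corrected for transcript length, so levels are compared between libraries for 1 gene and not between genes. Mitochondrial transcripts took 3.44% to 3.81% of counts in the knock-out and 3.20% to 3.44% in wild-type libraries. Wild-type replicate 3 stood farther from the other wild-type libraries (3.51 and 4.04 times the variance that counting alone gives, on average over genes) than replicates 1 and 2 stood from each other (2.33). Where a call on a subunit changed without it, both values are given. As a check of the cell type, 7 colon epithelial markers were listed. Only the keratins Krt18 and Krt20 were clearly present in both genotypes, so the check is partial. Krt18 rose to 111 ± 5.85 CPM in the knock-out against 38.8 ± 1.48 CPM in wild-type cells (SD, n = 3 each). Krt20 rose to 51.8 ± 3.93 CPM in the knock-out against 14.97 ± 0.574 CPM in wild-type cells (SD, n = 3 each). Krt8 had 16, 37 and 25 counts in the knock-out and 1, 1 and 2 in wild-type cells, and it passed the filter on low counts only through the knock-out libraries, so no test is read from it. Epcam, Cdh1 and Cdx2 were not found among the genes of the count table, and Vil1 had at most 6 counts in any library. The summed level of the listed epithelial markers was 161 to 174 CPM in the knock-out and 53.0 to 55.5 CPM in wild-type libraries, and that of the fibroblast markers 1320 to 1359 CPM in the knock-out and 1008 to 1025 CPM in wild-type libraries, with 4 of 5 tested fibroblast markers higher, where 33.1% of all genes tested were higher. Leukocyte markers summed to 18.8 to 23.5 CPM in the knock-out and 18.7 to 23.0 CPM in wild-type libraries, with the pan-leukocyte gene Ptprc at no more than 4 counts; among them Csf1r was lower (log2 fold change -1.19). Endothelial markers summed to 1.96 to 2.85 CPM in the knock-out and 0.306 to 1.62 CPM in wild-type libraries. The leukocyte marker Lyz2 (96, 100 and 87 counts in the knock-out, 8, 8 and 2 in wild-type cells) and the endothelial marker Pecam1 (19, 30 and 22 in the knock-out, 3, 3 and 10 in wild-type cells) also passed the filter only through the knock-out libraries. Their part in the results below was not tested.

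Kmt2c (ENSMUSG00000038056, chromosome 5, 25271795 to 25498855), the targeted methyltransferase gene, had 16.0, 11.2 and 14.8 CPM in knock-out libraries sg1, sg2 and sg3, against 24.9, 26.2 and 25.01 CPM in wild-type replicates 1, 2 and 3. Every knock-out library lay below every wild-type library, and none was near 0. The raw counts behind these values were 163, 129 and 154 in the knock-out against 317, 257 and 232 in wild-type cells. Relative to the wild-type mean the knock-out libraries kept 62.9%, 44.0% and 58.3% of the transcript. Among the knock-out libraries sg2 was lowest. Its exact Poisson 95% interval, which covers counting error only, was 9.31 to 13.3 CPM, against 13.6 to 18.6 CPM for sg1. That of sg3, 12.6 to 17.3 CPM, overlapped both. Between sg1 and sg2 the variance was 2.67 times that of counting, on average over genes. The intervals are therefore too narrow to show that the libraries differ in Kmt2c. In the fit over all genes the log2 fold change, knock-out over wild-type, was -0.87 (SE 0.129, 95% interval -1.12 to -0.61, n = 3 each, edgeR quasi-likelihood test, adjusted p = 4.33e-08), which is 0.549-fold. Kmt2c was the 1 gene of the 9 whose change exceeded 1.5-fold in edgeR's test against that size (adjusted p = 0.0228). Over the whole table the same test called 1448 genes higher and 1154 lower of 13013, so passing it is not rare here. Counts summed over the gene neither locate the edit nor show whether the remaining transcript encodes protein, and in bulk RNA fewer cells carrying the transcript and less of it per cell cannot be told apart. RefSeq places 2 pseudogenes within the Kmt2c span, and 2 within that of Ncoa6, and for the other genes none overlaps.

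Across the 9 genes, 2 rose and 5 fell, and 2 did not pass the test (adjusted p under 0.05 over all 13013 genes tested). The background has to stand beside that count: 66.2% of all genes tested passed, 33.1% higher and 33.2% lower, so 7 of 9 is near the rate of the whole table. The median log2 fold change of the 9 was -0.29, against 0.02 for all genes tested. The knock-out and wild-type libraries did not overlap for 7 of the 9 genes, and for 68.7% of all genes tested.

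**Figure D1:**
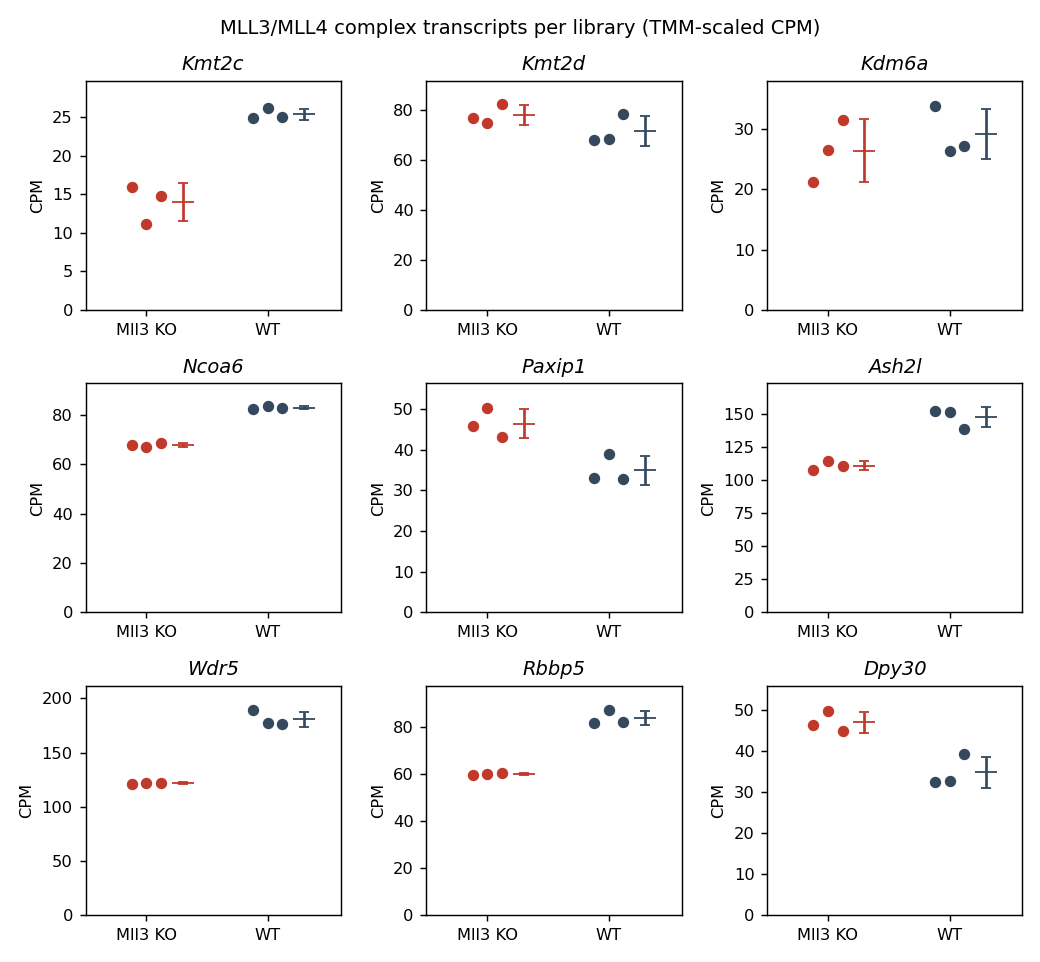
TMM-scaled CPM of the 9 genes in each library, with knock-out libraries (red, sg1, sg2 and sg3 from left to right) left of wild-type libraries (grey, replicates 1, 2 and 3); bars give mean ± SD (n = 3 each) and each axis starts at 0. The groups overlap for Kmt2d and Kdm6a and are apart for the other 7 genes.

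Kmt2d (ENSMUSG00000048154, chromosome 15, 98831669 to 98874077), which encodes the paralogous enzyme MLL4, had 76.8, 74.5 and 82.4 CPM in knock-out libraries sg1, sg2 and sg3, against 68.0, 68.3 and 78.5 CPM in wild-type replicates 1, 2 and 3. The groups overlapped, because wild-type replicate 3 lay above 2 of the knock-out libraries. The mean was 77.9 ± 4.01 CPM in the knock-out and 71.6 ± 5.95 CPM in wild-type cells (SD, n = 3 each), a log2 fold change of 0.12 (SE 0.0667, edgeR adjusted p = 0.0966). The 95% interval of the fold ran from 0.993 to 1.20, so these libraries leave room for anything from no change to a rise of that size. With 1 library left out the log2 fold change was lowest without sg3, at 0.071 (edgeR adjusted p = 0.438). It was highest, at 0.18, when wild-type replicate 3 was left out, and then passed (edgeR adjusted p = 0.0160). It also passed with a filter of 300 counts in total (0.16, adjusted p = 0.0285), with library size alone (0.25, adjusted p = 0.00122) and with upper-quartile scaling (0.28, adjusted p = 0.000276). With the median of each chromosome removed it was -0.0079.

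The balance between the paralogues can be read within a library, where scaling plays no part. Kmt2c made up 17.2%, 13.02% and 15.2% of the summed Kmt2c and Kmt2d counts in knock-out libraries sg1, sg2 and sg3, against 26.8%, 27.7% and 24.2% in wild-type replicates 1, 2 and 3. The Wilson 95% intervals of the knock-out libraries reached at most 19.7% and those of the wild-type libraries began at 21.6% or above. The mean share was 15.1% ± 2.09 in the knock-out and 26.2% ± 1.85 in wild-type cells (SD, n = 3 each), a difference of -11.1 percentage points. The exact two-sided permutation test gave p = 0.10, the smallest value that 3 against 3 libraries allow. Because counts follow transcript length as well as abundance, the share shows the shift between genotypes and not how many molecules of each there are.

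**Figure D2:**
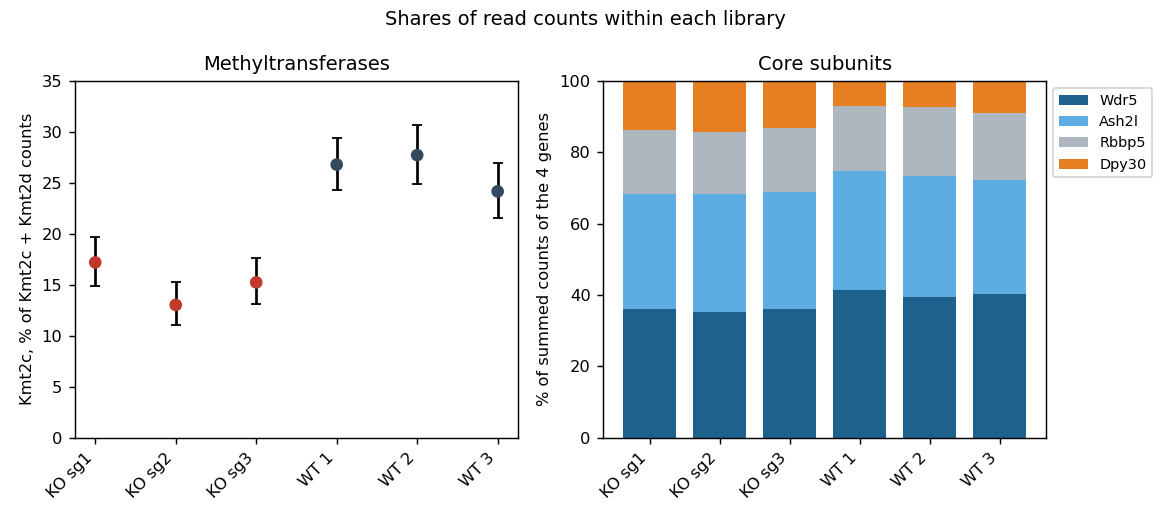
Left, Kmt2c as a percentage of the summed Kmt2c and Kmt2d counts in each library, with Wilson 95% intervals of counting error; right, the split of the summed counts of Wdr5, Ash2l, Rbbp5 and Dpy30. Knock-out libraries stand left of wild-type libraries; Kmt2c takes 13.02% to 17.2% in the knock-out and 24.2% to 27.7% in wild-type cells, and Dpy30 takes a larger part of the core in all 3 knock-out libraries.

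In the shared core Wdr5, Rbbp5 and Ash2l fell while Dpy30 rose, with Ash2l close to the median of chromosome 8, on which it lies. Both directions were equally common in the whole table, with 33.1% of all genes tested higher and 33.2% lower. The mixed directions are therefore not particular to the core. Wdr5 (ENSMUSG00000026917, chromosome 2, 27515147 to 27536535), a WD40 propeller protein that holds the enzyme and the other core subunits together, had 120.6, 121.7 and 122.3 CPM in knock-out libraries sg1, sg2 and sg3, against 188.9, 177.0 and 176.1 CPM in wild-type replicates 1, 2 and 3. The 3 knock-out values lay within 2 CPM of each other and far below the lowest wild-type value. The log2 fold change was -0.57 (SE 0.0486, edgeR adjusted p = 1.25e-15), or 0.672-fold.

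Rbbp5 (ENSMUSG00000026439, chromosome 1, 132477348 to 132505665), which pairs with ASH2L to activate the SET domain, stood at 59.5, 60.3 and 60.6 CPM in knock-out libraries sg1, sg2 and sg3, against 82.0, 87.4 and 82.5 CPM in wild-type replicates 1, 2 and 3. The groups were again apart, with a log2 fold change of -0.48 (SE 0.0650, edgeR adjusted p = 4.29e-09). Ash2l (ENSMUSG00000031575, chromosome 8, 25816000 to 25847694), its partner in the core, had 108.0, 114.6 and 110.8 CPM in knock-out libraries sg1, sg2 and sg3, against 152.1, 151.7 and 139.1 CPM in wild-type replicates 1, 2 and 3. All knock-out values lay below all wild-type values, and the log2 fold change was -0.41 (SE 0.0520, edgeR adjusted p = 6.77e-10). This call was lost when the median of each chromosome was removed (-0.05, edgeR adjusted p = 0.372).

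Dpy30 (ENSMUSG00000024067, chromosome 17, 74299474 to 74323944), a small subunit that docks on ASH2L, went the other way. It had 46.2, 49.7 and 44.8 CPM in knock-out libraries sg1, sg2 and sg3, against 32.5, 32.5 and 39.1 CPM in wild-type replicates 1, 2 and 3. The lowest knock-out library stood above the highest wild-type library, which was replicate 3. The log2 fold change was 0.44 (SE 0.0881, edgeR adjusted p = 1.70e-05), or 1.36-fold, with a 95% interval of 1.20 to 1.53.

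Within each library Dpy30 gave 13.8%, 14.4% and 13.2% of the summed core counts in knock-out libraries sg1, sg2 and sg3, against 7.13%, 7.25% and 8.96% in wild-type replicates 1, 2 and 3, a mean difference of 6.02 percentage points. The share of Wdr5 was 35.8% ± 0.558 in the knock-out and 40.4% ± 1.02 in wild-type cells (SD, n = 3 each), and that of Rbbp5 was 17.7% ± 0.265 in the knock-out and 18.8% ± 0.746 in wild-type cells. For these 3 genes the groups did not overlap, and the exact two-sided permutation p was 0.10, the smallest possible here. For Rbbp5 the groups nearly touched, with 17.9% in sg3 against 18.0% in wild-type replicate 1. Its permutation p was 0.20 when any single knock-out library was left out. Ash2l kept 32.7% ± 0.397 in the knock-out and 33.0% ± 1.04 in wild-type cells (exact two-sided permutation p = 0.70), with overlapping groups. These shares do not depend on how libraries are scaled against each other, but as parts of a common sum they are not separate results.

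Among the subunits that, within the family, are found only with MLL3 and MLL4, Ncoa6 fell, Paxip1 rose and Kdm6a did not pass the test. Ncoa6 (ENSMUSG00000038369, chromosome 2, 155390656 to 155473911), a nuclear receptor coactivator, had 67.7, 67.0 and 68.5 CPM in knock-out libraries sg1, sg2 and sg3, against 82.6, 83.5 and 82.9 CPM in wild-type replicates 1, 2 and 3. Libraries of a group lay within 2 CPM of each other, and the groups were apart. The log2 fold change was -0.29 (SE 0.0630, edgeR adjusted p = 5.52e-05).

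Paxip1 (ENSMUSG00000002221, chromosome 5, 27740080 to 27791672) encodes PTIP, a BRCT domain protein that also acts in the DNA damage response. Its level was 45.8, 50.2 and 43.0 CPM in knock-out libraries sg1, sg2 and sg3, against 33.0, 39.0 and 32.8 CPM in wild-type replicates 1, 2 and 3. The groups were apart, and the log2 fold change was 0.41 (SE 0.0886, edgeR adjusted p = 5.37e-05). The spans of Kmt2c and Paxip1 lie 2.24 Mb apart on chromosome 5, and their transcripts moved in opposite directions. Of the 58 tested genes within 5 Mb of Kmt2c, 18 were higher and 16 lower, so both directions were common there.

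Kdm6a (ENSMUSG00000037369, chromosome X, 18160862 to 18279936) encodes the demethylase UTX. It had 21.1, 26.6 and 31.5 CPM in knock-out libraries sg1, sg2 and sg3, against 33.9, 26.4 and 27.2 CPM in wild-type replicates 1, 2 and 3. The groups overlapped, with sg3 above 2 of the wild-type libraries, and relative to its mean the knock-out spread was wider than for any other of the 9 genes (26.4 ± 5.19 CPM in the knock-out and 29.1 ± 4.10 CPM in wild-type cells). The test gave a log2 fold change of -0.15 (SE 0.116, edgeR adjusted p = 0.256) and a 95% interval of the fold from 0.765 to 1.06. Single libraries decided its size: the log2 fold change was -0.023 without wild-type replicate 1 (edgeR adjusted p = 0.893), -0.027 without sg1 (adjusted p = 0.859) and -0.30 without sg3, where it passed (adjusted p = 0.0411). With upper-quartile scaling it was 0.0062.

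Directions of small changes depend on the scale on which libraries are set against each other. Upper-quartile scaling and library size alone move the median log2 fold change of all genes tested to 0.17 and 0.14, against 0.02 with TMM. Kmt2c, Wdr5, Rbbp5, Ash2l and Ncoa6 stayed below 0 and Paxip1 and Dpy30 above 0 under all 4 scalings between libraries; Kdm6a crossed 0. The smallest fall among those 5 was that of Ncoa6 with upper-quartile scaling, at -0.14 (edgeR adjusted p = 0.0489).

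**Figure D3:**
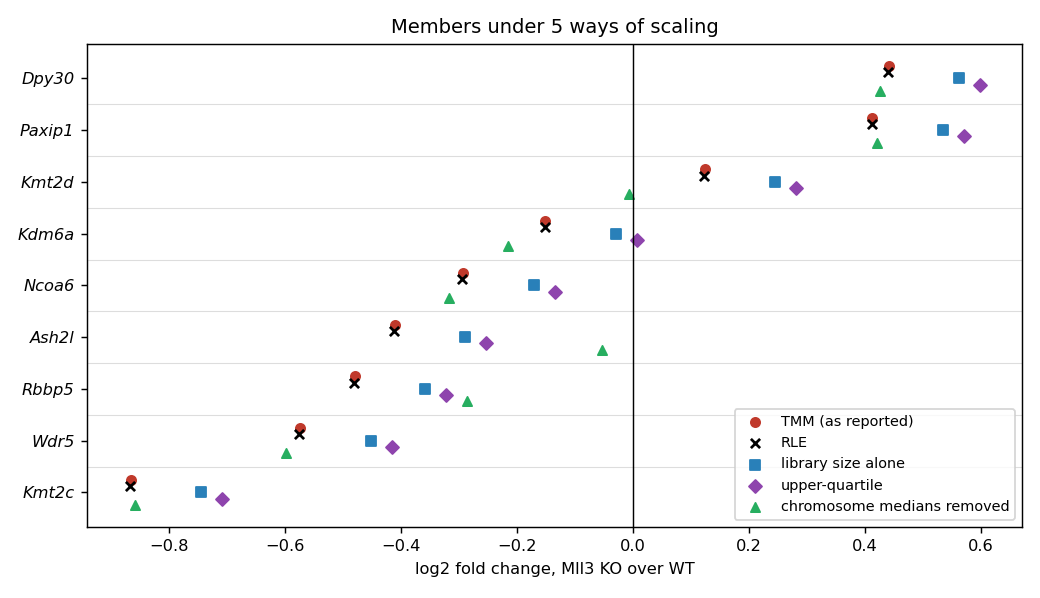
Log2 fold change (knock-out over wild-type) of each of the 9 genes under 5 ways of scaling: TMM, RLE, library size alone, upper-quartile factors, and TMM with chromosome medians removed. Library size alone and upper-quartile factors move every gene to the right by a similar amount, and removing chromosome medians gives Ash2l -0.05, against -0.41 with TMM alone.

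Levels were also set beside those of neighbouring genes, because the medians of whole chromosomes differed between the genotypes. The genes on chromosome 8 had a median log2 fold change of -0.35 (653 genes besides Ash2l), and the 51 tested genes within 5 Mb of Ash2l one of -0.40, against -0.41 for Ash2l itself. Of those 51 neighbours, 49.0% had a lower log2 fold change than Ash2l. For Rbbp5 on chromosome 1 the chromosome median was -0.19 and the value after removal was -0.29 (edgeR adjusted p = 0.000123). Among the 73 tested genes within 5 Mb of Rbbp5 the median was -0.03, and 20.5% had a lower log2 fold change than Rbbp5.

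Wdr5 and Ncoa6 fell in regions of chromosome 2 whose median lay above 0 at this distance. The 149 tested genes within 5 Mb of Wdr5 had a median of 0.18, with 69 higher and 32 lower, but the 52 within 2 Mb had a median of 0.02, with 17 higher and 17 lower. The 110 within 5 Mb of Ncoa6 had a median of 0.18, with 47 higher and 26 lower, and the 63 within 2 Mb one of 0.23, with 24 higher and 11 lower. Kmt2c lay in a region with a median of -0.01 over 58 genes, 18 higher and 16 lower, and 5.17% of these neighbours had a lower log2 fold change than Kmt2c. Around Paxip1 the median was -0.02 over 81 genes, and around Dpy30 it was -0.20 over 37 genes, with 10 higher and 21 lower. Kmt2d lay in a region of chromosome 15 where 81 of 121 genes were higher and 14 lower, with a median of 0.43, above its own 0.12. Around Kdm6a the median was 0.12 over 21 genes.

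**Figure D4:**
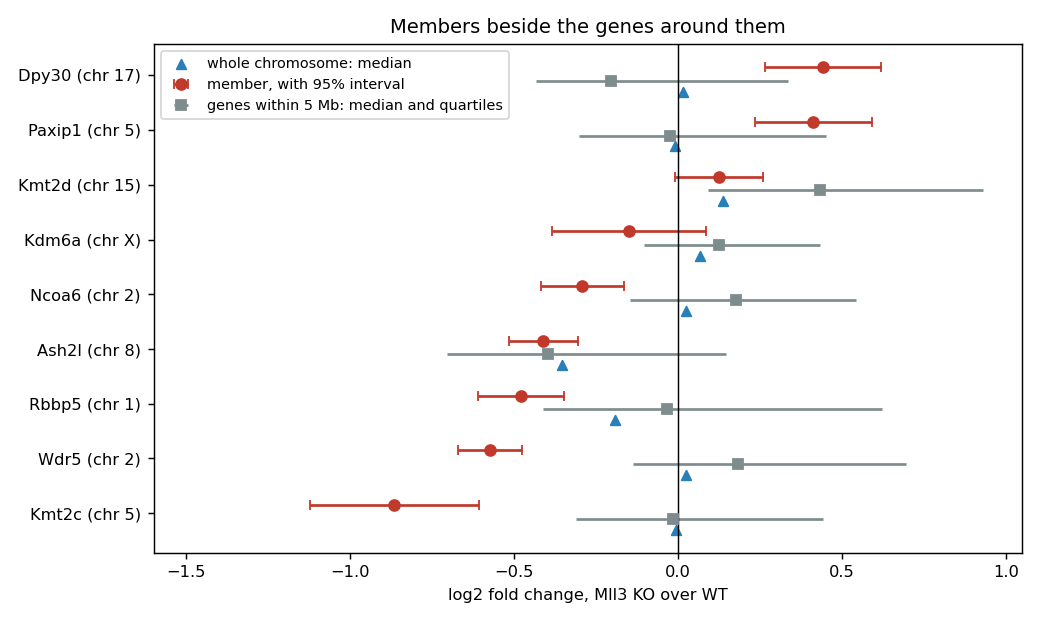
Log2 fold change (knock-out over wild-type) of each of the 9 genes with its 95% interval (red), the median and quartiles of the other tested genes starting within 5 Mb (grey) and the median of the rest of the chromosome (blue). Ash2l sits at the median of its neighbours (-0.41 and -0.40), while Kmt2c, Wdr5, Rbbp5, Ncoa6 and the uncalled Kdm6a lie below the lower quartile of theirs and Dpy30 above the upper one.

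Genes whose level followed Kmt2c most closely over the 6 libraries, by Pearson's r of log2 CPM among 9136 genes of sufficient level, were Trp53rka, Ube2v2, Hpf1, Csf1r and Arid1a, with r between 0.997 and 0.999. Their log2 fold changes were -0.68, -0.34, -0.33, -1.19 and -0.49 in that order; that they were lower in the knock-out follows from how they were chosen. The points share their libraries and their genotype difference, and 2146 of the 9136 genes had r above 0.9, so such values are common in this table. Among the subunits r with Kmt2c was 0.96 for Ncoa6, 0.93 for Rbbp5, 0.93 for Wdr5, 0.88 for Ash2l and 0.24 for Kdm6a. It was -0.51 for Kmt2d, -0.90 for Paxip1 and -0.92 for Dpy30.

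Relatives of the complex were examined as 3 lists. The first held 14 genes: subunits, enzymes and partners of the other COMPASS complexes, which share the WDR5, RBBP5, ASH2L and DPY30 core, and also the more distant family gene Kmt2e and Tasp1, which encodes the protease that cleaves MLL1. Of the 14, 4 rose, 5 fell and 5 did not pass, with a median log2 fold change of -0.06, against 0.02 for all genes; 66.2% of all genes tested passed, so 9 of 14 is near that rate. With upper-quartile scaling 6 rose and 2 fell. The 3 with the smallest p were Cxxc1, Hcfc1 and Men1. Cxxc1, the CpG-binding subunit of the SET1 complexes, had 21.8, 20.7 and 22.5 CPM in the knock-out libraries, against 34.97, 38.3 and 41.3 CPM in the wild-type libraries (log2 fold change -0.81, SE 0.101, edgeR adjusted p = 3.88e-10); it lies on chromosome 18, whose median was -0.32. Hcfc1, a cofactor of several COMPASS complexes, rose by 0.37 on the log2 scale, and Men1, which encodes menin of the MLL1 and MLL2 complexes, rose by 0.49.

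Of 13 partners of MLL3 and MLL4 at enhancers, 3 rose and 8 fell, with a median of -0.37; 33.1% and 33.2% of all genes tested rose and fell. Ep300, the acetyltransferase that places the active mark on lysine 27 of histone H3, had 72.6, 80.3 and 76.3 CPM in knock-out libraries sg1, sg2 and sg3, against 123.4, 119.1 and 126.7 CPM in wild-type replicates 1, 2 and 3. The groups were far apart, with a log2 fold change of -0.69 (SE 0.0575, edgeR adjusted p = 7.98e-16). The paralogous forkhead genes Foxk1 and Foxk2, whose proteins bind the BAP1 deubiquitinase, went opposite ways. Foxk1 rose to 59.4 ± 4.21 CPM in the knock-out, against 36.0 ± 3.69 CPM in wild-type cells (log2 fold change 0.72). Foxk2 fell to 96.3 ± 4.08 CPM in the knock-out, against 137.5 ± 1.34 CPM in wild-type cells (log2 fold change -0.51).

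Of 10 erasers of H3K4 and H3K27 methylation and subunits of the Polycomb complex PRC2, 1 rose, 6 fell and 3 did not pass, with a median of -0.20. In both directions together, 7 of 10 is again near the 66.2% of all genes tested that passed. By direction, 33.1% of all genes tested rose and 33.2% fell, so the list held more falls and fewer rises than the table. Kdm6b, which encodes JMJD3, the other H3K27 demethylase beside UTX, had 27.2, 25.9 and 24.4 CPM in knock-out libraries sg1, sg2 and sg3, against 69.4, 70.4 and 82.9 CPM in wild-type replicates 1, 2 and 3. This log2 fold change of -1.52 (SE 0.0843, edgeR adjusted p = 3.83e-23) was larger than any among the 9 subunits. Kdm5b and Kdm5c, which encode demethylases of trimethylated H3K4, fell by 1.29 and 0.46 on the log2 scale.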

How the data were processed

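Expression was analysed in 6 RNA-seq libraries. Per the labels' protocols, polyA RNA was made into strand-specific libraries with a directional kit, and all 6 carry 1 batch date. The authors deposited raw read counts per Ensembl gene, not normalized. The submitters' processing notes name build mm10 and, among other tools, fastp, STAR and HTSeq; roles, versions, annotation and strand setting are not stated. Every gene is above 0 in at least 3 libraries. The CUT&Tag and single-cell samples are not analysed here.

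Symbols were found for 17650 identifiers and RefSeq positions for 11923 tested genes. Genes passing edgeR's filterByExpr (minimum count 10, minimum total 15; 13013 genes) were TMM-scaled, and a robust quasi-likelihood fit was tested in edgeR 4.0.16 (R 4.3.3), with Benjamini-Hochberg adjustment over all genes tested. SE came from the F statistic. Log2 CPM for correlations used a prior count of 2. The script was tested on simulated data. Alternatives used DESeq2 1.42.0 and limma 3.58.1, among others.

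Named genes are the 10 subunits, the 3 smallest p of each related list and the 5 genes most like Kmt2c. Subunits and lists were chosen with earlier results of these data known. Whether replicates are separate cultures is not stated; if they are not, the p-values reflect technical spread only. No library pair agreed within counting noise.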

Additional observations from a re-analysis of the deposited data

How the results depend on the processing

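Kmt2c kept its direction and passed in all 15 alternatives (log2 fold change -0.98 to -0.73 with 1 library left out, -0.89 to -0.71 otherwise). Its share of Kmt2c and Kmt2d counts differed by -12.1 to -10.02 percentage points with 1 library left out. With 1 library left out, 2 to 3 subunits were higher and 5 to 6 lower, and no call among the 7 was lost. Against a 1.5-fold change (glmTreat), 0 subunits were higher and 1 lower, as the test demands a larger change; of the COMPASS list 0 were higher and 1 lower, of the enhancer partners 0 and 0, and of the erasers and PRC2 0 and 2. That test called 1448 genes higher and 1154 lower over the table, against 4301 and 4320. With upper-quartile scaling 6 of the COMPASS list were higher and 2 lower, against 4 and 5, and the calls over the table were 5587 higher and 3183 lower; with library size alone they were 5266 and 3440. With either scaling, and with chromosome medians removed, 2 of the erasers and PRC2 were higher. With 1 library left out, 5 to 7 of that list were lower (7 without wild-type replicate 3).

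Kdm6a reversed with upper-quartile scaling (0.0062, adjusted p = 0.966) and Kmt2d with chromosome medians removed (-0.0079, adjusted p = 0.926); neither passes the threshold in these settings. The Ash2l share of core counts differed by -0.90 to 0.083 percentage points with 1 library left out, and turned to 0.083 without wild-type replicate 2. The cause was not tested.

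Neighbour medians moved with the window: in 2 Mb and 10 Mb they were 0.49 and 0.22 around Kdm6a (2 and 36 genes), 0.23 and 0.074 around Ncoa6, 0.019 and 0.12 around Wdr5, -0.19 and -0.094 around Rbbp5, and -0.30 and -0.13 around Dpy30. In 2 Mb they were 0.49 around Kmt2d and 0.075 around Paxip1 (5 genes), and in 10 Mb -0.49 around Ash2l.

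No paired analysis was possible because the knock-out columns carry no replicate number that the labels tie to a sample. With 3 libraries per group and 129 to 317 counts of Kmt2c per library, the interval of its fold ran from 0.459 to 0.656.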
